A study of Mus musculus with 6 samples.

Results

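The mRNA levels of 9 mitophagy genes were followed in mouse embryonic stem (ES) cells that overexpressed Sim2. The genes were Bnip3, Bnip3l, Fundc1, Bcl2l13, Pink1, Park2, Becn1, Map1lc3b and Sqstm1, taken by gene name from a table of 22602 genes, and all 9 were listed. The Sim2 group was made of the clones A6, B8 and C4, with 1 culture each. Each clone has mouse Sim2 with a Flag tag inserted at ROSA26, driven by a modified human CMV promoter that is active when tetracycline is withdrawn. The control group held 3 independent cultures of EB3 (EBRTcH3), the parental line without this transgene, numbered 0, 1 and 2. Both lines carry the tetracycline-regulated transactivator and a Venus reporter, and all 6 cultures were grown with LIF and serum. Tetracycline was removed 3 h before passage, and the cells were harvested 26 h after passage. No library of the clones with tetracycline was analysed here, so the effect of Sim2 and that of deriving the clones from EB3 cannot be told apart.

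Mitophagy is the removal of mitochondria by autophagy. In the receptor route, proteins anchored in the outer mitochondrial membrane (BNIP3, its paralog BNIP3L, FUNDC1 and BCL2L13) bind LC3 proteins on the forming autophagosome. In the other route the kinase PINK1 accumulates on damaged mitochondria and activates the ubiquitin ligase Parkin, encoded by Park2, and adaptors such as p62 (Sqstm1) link the ubiquitin coat to LC3. Bnip3 is a well known target of the hypoxia factor HIF-1, and BNIP3 has been described in other cells as repressed by SIM2, a bHLH-PAS factor that pairs with ARNT as HIF-1 alpha does.

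The sequence directly upstream of the listed start of 3 of these genes is shown because they are the receptor pair and the kinase on which the results turn. HIF dimers recognise sites with an ACGTG or GCGTG core, and SIM2-ARNT dimers are described with the ACGTG core. Each window holds the 250 bases before the start on the gene's own strand, read from the mm9 genome, and capitals mark ACGTG and GCGTG on either strand. The Bnip3 window is chr7:146101190-146101439, that of Bnip3l is chr14:67627715-67627964 and that of Pink1 is chr4:137882212-137882461, all from the minus strand.
Bnip3: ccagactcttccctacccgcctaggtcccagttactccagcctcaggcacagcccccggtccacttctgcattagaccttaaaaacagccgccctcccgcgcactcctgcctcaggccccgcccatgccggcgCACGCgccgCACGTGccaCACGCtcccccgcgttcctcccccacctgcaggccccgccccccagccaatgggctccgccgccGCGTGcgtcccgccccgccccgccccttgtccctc
Bnip3l: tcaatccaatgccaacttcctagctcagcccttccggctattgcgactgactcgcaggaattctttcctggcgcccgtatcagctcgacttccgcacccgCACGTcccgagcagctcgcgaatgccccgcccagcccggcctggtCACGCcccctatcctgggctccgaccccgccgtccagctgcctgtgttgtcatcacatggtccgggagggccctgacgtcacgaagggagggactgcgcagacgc
Pink1: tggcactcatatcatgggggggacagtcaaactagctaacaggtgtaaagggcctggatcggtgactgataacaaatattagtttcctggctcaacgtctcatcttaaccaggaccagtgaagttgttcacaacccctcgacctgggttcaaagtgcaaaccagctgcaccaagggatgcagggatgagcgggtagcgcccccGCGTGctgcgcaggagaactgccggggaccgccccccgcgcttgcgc

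Counting back from the start, the Bnip3 window held a palindromic CACGTG, which contains ACGTG on both strands, at -108 to -103. It lay between GCGTG cores at -117 to -113 and -99 to -95 on the opposite strand, and a further GCGTG lay at -35 to -31. The Bnip3l window held 1 ACGTG at -150 to -146 and 1 GCGTG at -105 to -101. The Pink1 window held 0 ACGTG and 1 GCGTG, at -47 to -43. Of the 9 members 2 had an ACGTG, 1 a CACGTG and 6 a GCGTG in this window, against 22.3%, 8.63% and 47.2% of the 11592 tested genes with a readable window. A match is a description of the letters and not a bound site.

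The libraries were alike in depth, with 25095861 to 28269340 reads in genes. Sim2 was 168 to 212 RPKM (reads per kilobase of cDNA and per 1000000 reads) in the clones and 0.0917 to 0.130 in EB3, which fits the labels. All 8 ES cell markers were expressed, with a summed level of 5581 to 6766 RPKM in the clones and 5626 to 7064 in EB3. Of 6 fibroblast, 5 endoderm and 5 mesoderm markers, 1, 0 and 1 had a mean of at least 1 RPKM, while the summed level of 4 neural markers, mostly Tubb3, was 76.2 to 97.9 in the clones and 119 to 137 in EB3. The part of these markers in the results was not tested. EB3-0 stood apart from the other controls. The mean chi-square per gene between its reads and those of EB3-1 was 61.6. For EB3-1 and EB3-2 it was 2.62, the lowest of the pairs within a group. Pairs of clones gave 10.5 to 32.8, and clones were not paired with controls. EB3-1 and EB3-2 are described as independent cultures, but so alike a pair may carry less information than separate cultures would. The SDs, SEs and p-values with n = 3 treat them as separate. Over the members, EB3-1 and EB3-2 differed by at most 0.12 on the log2 scale, while EB3-0 lay between 0.46 below (Park2) and 0.42 above (Pink1) their mean.

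The clones had less Bnip3 and more Pink1 mRNA than EB3. Bnip3 fell to 17.1 from 32.8 RPKM and Pink1 rose to 22.7 from 9.0 RPKM. These were the 2 of 9 members that passed the test (limma on log2(RPKM + 0.5), Benjamini-Hochberg adjusted p under 0.05 over 11595 genes), where 81 of all tested genes did, or 0.699%. Because the members were chosen with earlier results of these data known, the 2 shares are not compared as a test. Both were also called with voom on the recovered reads, a method chosen after seeing the data that called 0.552% of tested genes. By direction, 0.345% of tested genes were called higher and 0.354% lower. The median log2 fold change was 0.22 over the 9 members and -0.01 over all tested genes. These are bulk samples, so a change in the share of cells that express a gene and a change per cell cannot be told apart.

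**Figure D1:**
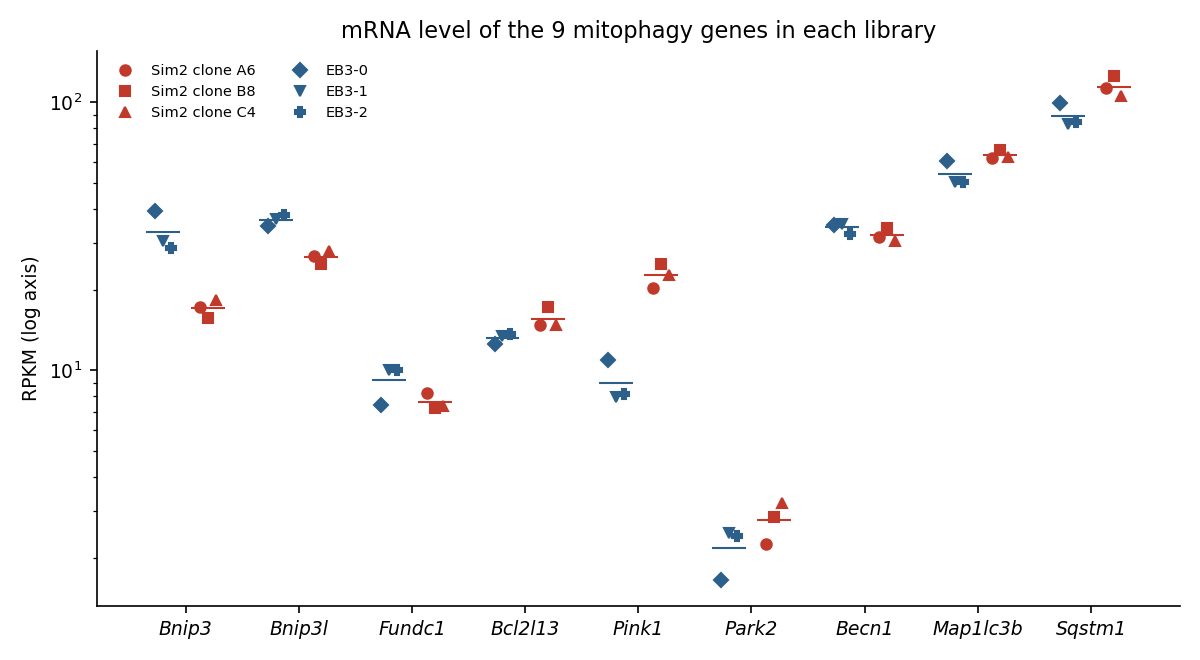
RPKM of the 9 members on a log axis, with 1 point for each library and a short line at the mean of each group (n = 3). Bnip3 and Bnip3l lie lower in all 3 Sim2 clones (red) than in all 3 EB3 cultures (blue), and Pink1 lies higher.

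BNIP3 is a BH3-like protein and a mitophagy receptor. Its gene (chr7:146082519-146101189, minus strand, 6 exons in the mm9 annotation) had 17.2, 15.7 and 18.3 RPKM in A6, B8 and C4, against 39.2, 30.3 and 28.7 RPKM in EB3-0, EB3-1 and EB3-2. The groups did not overlap, and the lowest control was 1.57 times the highest clone. The counts behind these values ran from 709 to 1881 reads. The means were 17.1 ± 1.32 RPKM in the clones and 32.8 ± 5.68 in EB3 (SD, n = 3 each). The log2 fold change was -0.91 with an SE of 0.13 and a 95% interval of -1.22 to -0.60 (limma, adjusted p = 0.0334), and the exact permutation test gave 0.1, the smallest p that 3 libraries against 3 allow. Each clone taken alone lay below the EB3 mean on the log2 scale, A6 by -0.90, B8 by -1.03 and C4 by -0.81. The direction held in each fit that left out 1 library, from -0.998 to -0.776, but the call was kept in 1 of these 6 fits, that without EB3-0, and averaging the close pair of controls ended it (limma, adjusted p = 0.115).

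The Bnip3 value is uncertain where reads were shared, because its transcript has near-identical copies elsewhere in the genome. On chromosome 14 there are 2 places that match 858 and 817 of its 1756 bases each, at 97.8% to 98.3% identity. A further copy on chromosome 3 matches 943 bases at 95.2% and 686 at 97.7%, and the X chromosome has 1091 bases at 90.6%. Of the genes on either side, 1 could be tested. Ppp2r2d, a phosphatase subunit gene 7779 bases away, differed by -0.03 ± 0.08 on the log2 scale (SE, limma, adjusted p = 0.901), and Jakmip3 had at most 7 reads in a library and was not tested. Over the 8 tested genes within 1000000 bases the median was 0.05, from -0.49 to 0.25, with 4 higher in the clones and 0 called.

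BNIP3L (NIX), the paralog that clears mitochondria from maturing red blood cells, went the same way with a smaller difference that missed the threshold. Bnip3l (chr14:67604077-67627714) had 26.7, 25.0 and 27.8 RPKM in the clones, in the same order, against 34.6, 36.9 and 37.9 in EB3-0, EB3-1 and EB3-2. All clones lay below all controls. On the log2 scale they differed by -0.45 ± 0.09 (SE), with an interval of -0.66 to -0.25 and an adjusted p of 0.0714 from limma. Without EB3-0 the adjusted p was 0.0272, and with any other library dropped it was 0.145 to 0.275. Copies of 663 and 626 bases at 99.2% and 99.4% identity lie on chromosome 12, so shared reads are possible here as well. Others lie within Zranb3 (419 and 652 bases at 98.6% and 96.9%) and Vps8 (541 bases at 93.9%). Bnip3l was 1.52 to 1.60 times Bnip3 in the clones, and 0.883, 1.22 and 1.32 times in EB3-0, EB3-1 and EB3-2.

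The remaining receptors were less abundant than Bnip3 and Bnip3l in EB3, while in the clones Bcl2l13 overlapped Bnip3. FUNDC1 is a receptor linked to hypoxia, and its gene (chrX:17133695-17149423) was 8.26, 7.22 and 7.35 RPKM in A6, B8 and C4 and 7.42, 10.05 and 10.06 in EB3-0, EB3-1 and EB3-2. The groups overlapped because EB3-0 lay among the clones, and they differed by -0.24 ± 0.15 on the log2 scale (SE, limma, adjusted p = 0.435). The sign depended on the processing, since it turned to 0.07 once trends of the values with GC content and transcript length were taken out of each library. At 38.8% its transcript had the lowest GC content of the members, which otherwise ran from 41.6% (Bnip3) to 59.0% (Pink1). The members lower in the clones (Fundc1, Bnip3, Bnip3l and Becn1) all had a lower GC content than every member higher in the clones. Of the members only Fundc1 and Becn1 changed sign with GC and length trends removed, where Bnip3 was at -0.68 and Pink1 at 1.20. Beyond that setting, the part of GC content in these directions was not tested. BCL2L13 is a BCL2-related receptor, and its gene (chr6:120786248-120842860) was 14.8, 17.2 and 14.8 RPKM in the clones against 12.6, 13.5 and 13.6 in EB3. The clones lay above the controls by a narrow margin, with a log2 fold change of 0.22 ± 0.11 (SE) that did not pass (limma, adjusted p = 0.324). Added together, the 4 receptor genes gave 65.1 to 68.2 RPKM in the clones and 90.2 to 93.9 in EB3, and Bnip3 made up 24.1% to 26.8% of that sum in the clones and 31.8% to 41.8% in EB3.

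**Figure D2:**
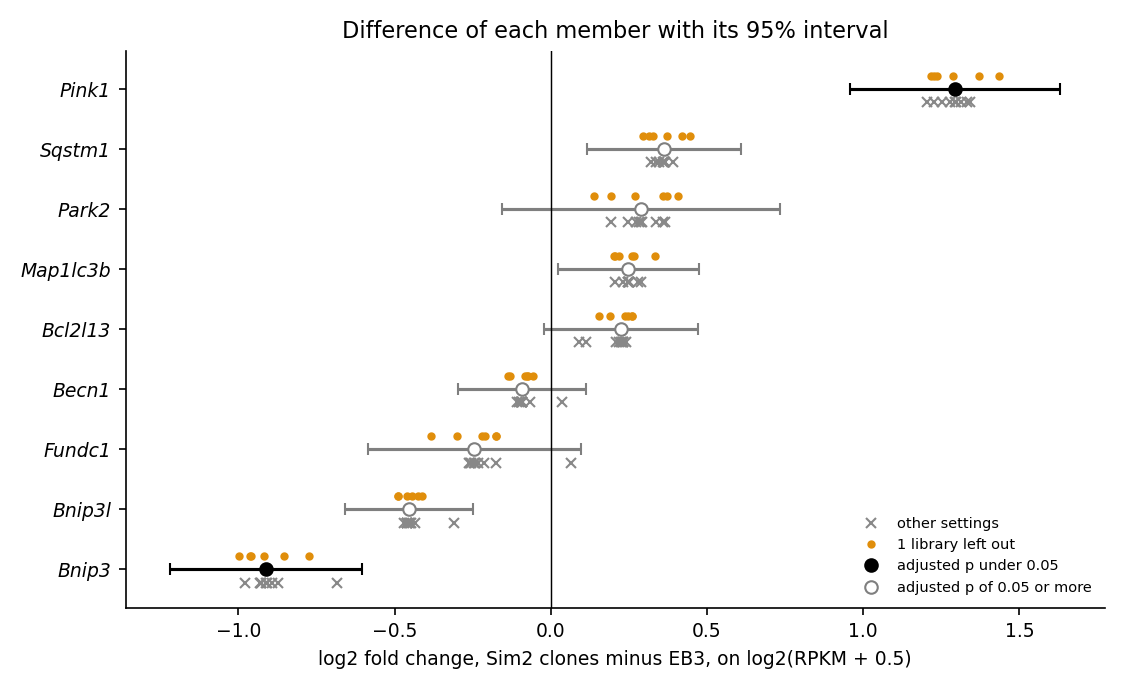
Log2 fold change of each member, Sim2 clones minus EB3, with its 95% interval (black where the adjusted p was under 0.05). Orange points leave out 1 library and grey crosses are other settings, and Fundc1 and Becn1 each cross 0 under 1 of them.

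PINK1 is the kinase that starts the ubiquitin route, and its mRNA showed the largest difference of the 9. Pink1 (chr4:137869325-137882211, minus strand, 8 exons) was 20.3, 24.9 and 22.8 RPKM in A6, B8 and C4. In EB3-0, EB3-1 and EB3-2 it was 10.9, 7.93 and 8.16 RPKM. The lowest clone was 1.86 times the highest control. The means were 22.7 ± 2.32 and 9.0 ± 1.65 RPKM (SD, n = 3 each), a ratio of 2.52, from 502 to 1525 reads per library. The log2 fold change was 1.29 with an SE of 0.15 and a 95% interval of 0.96 to 1.63 (limma, adjusted p = 0.0169), and the exact permutation p was 0.1. Of all tested genes 0.328% differed by as much in either direction, and 1.12% by as much as Bnip3. A6, B8 and C4 lay 1.14, 1.43 and 1.31 above the EB3 mean. With any single library dropped it was 1.22 to 1.43, and the call held in 2 of those 6 fits, without A6 and without EB3-0. With the mean of EB3-1 and EB3-2 used as 1 control, limma gave an adjusted p of 0.0742.

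No near-identical copy of the Pink1 transcript was found (at least 200 bases at 90% identity). Ddost, which encodes a subunit of the oligosaccharyltransferase, ends 798 bases from Pink1 on the other strand and had 71.0 RPKM in the clones and 67.9 in EB3, which differed by 0.07 ± 0.10 on the log2 scale (SE, limma, adjusted p = 0.762). Cda, the gene on the other side, had at most 8 reads in a library and was not tested. Of the 20 tested genes within 1000000 bases 0 were called, where 0.699% of all tested genes were. Their log2 fold changes ran from -0.45 to 0.91 with a median of 0.06, and 14 were higher in the clones.

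Because Bnip3 and Pink1 moved in opposite directions, their order was reversed between the groups. Pink1 was 1.18, 1.59 and 1.25 times Bnip3 in A6, B8 and C4, and 0.278, 0.262 and 0.284 times in EB3-0, EB3-1 and EB3-2. The ratio varied less among the controls than either gene, since both were highest in EB3-0.

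**Figure D3:**
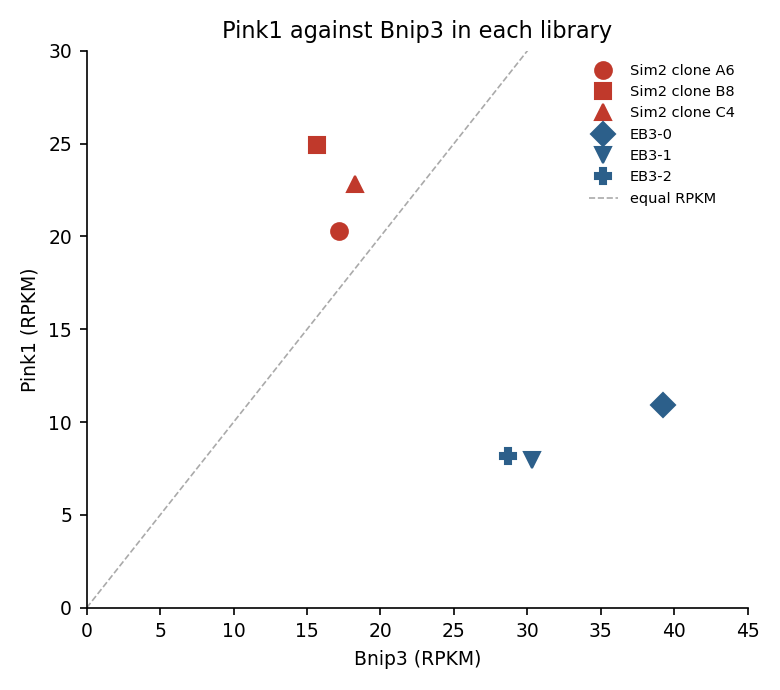
Pink1 against Bnip3 in RPKM, with 1 point for each library and a dashed line at equal levels. The 3 clones lie above the line, with ratios of 1.18 to 1.59, and the 3 EB3 cultures lie well below it, at 0.262 to 0.284.

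The mRNA for Parkin was scarce. Park2 (chr17:11033250-12256226) was 2.25, 2.84 and 3.20 RPKM in A6, B8 and C4 and 1.65, 2.48 and 2.42 in EB3-0, EB3-1 and EB3-2, from 144 to 290 reads. The groups overlapped, and the difference of 0.29 ± 0.19 on the log2 scale (SE) had an interval of -0.16 to 0.73 (limma, adjusted p = 0.482). Pink1 was 7.11 to 9.0 times Park2 in the clones, and 6.61, 3.20 and 3.38 times in EB3-0, EB3-1 and EB3-2.

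None of the general autophagy members passed the test, and all were more abundant than Park2, Fundc1 and Bcl2l13. BECN1 (Beclin 1) is a subunit of the lipid kinase complex that starts the autophagosome, and Becn1 (chr11:101149581-101163581) was 30.4 to 34.1 RPKM in the clones and 32.4 to 35.2 in EB3. The groups overlapped and differed by -0.09 ± 0.09 on the log2 scale (SE, limma, adjusted p = 0.632), which became 0.04 with GC and length trends removed. Becn1 overlaps Cntd1 on the opposite strand by 435 bases, and it is not stated whether reads were counted by strand. Cntd1 was 6.62 RPKM in the clones and 9.28 in EB3, a difference of -0.46 ± 0.13 on the log2 scale (SE, limma, adjusted p = 0.134). The part of shared reads was not tested. LC3B is the autophagosome protein that receptors bind, and Map1lc3b (chr8:124114368-124121947) was 62.2, 66.6 and 62.7 RPKM in the clones and 60.5, 50.4 and 50.6 in EB3. Its difference was 0.25 ± 0.10 on the log2 scale (SE, limma, adjusted p = 0.244), and 5 copies of its transcript at 94.7% to 99.6% identity make its level uncertain. p62 is the ubiquitin adaptor that is itself degraded by autophagy, and Sqstm1 (chr11:50013654-50024292) was 113, 125 and 105 RPKM in the clones and 99.8, 83.0 and 84.5 in EB3. It differed by 0.36 ± 0.11 on the log2 scale (SE, limma, adjusted p = 0.148). A copy of 319 bases of its transcript at 95.3% identity lies within Orc2, so shared reads are possible. For Map1lc3b and Sqstm1 every clone lay above every control, and EB3-0 was the control closest to the clones.

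Seen together, 6 of 9 members had groups that did not overlap, as had 26.1% of tested genes. An unadjusted p under 0.05 was found for 5 members and for 17.8% of tested genes. The members were chosen with earlier results of these data known, so these counts are a description and not a test of the list. Without EB3-0 the calls were 5 of 9, against 5.99% of tested genes. Bnip3l lower and Map1lc3b and Sqstm1 higher were added to Bnip3 and Pink1. The controls of that fit were only the close pair EB3-1 and EB3-2, which its p-values treat as separate cultures. Without A6 the call was 1 (Pink1), and without B8, C4, EB3-1 or EB3-2 it was 0. The order of levels per length was Sqstm1, Map1lc3b, Bnip3l, Becn1, Bnip3, Bcl2l13, Fundc1, Pink1 and Park2 in EB3. Of the neighbours in this order, Bnip3l and Becn1, Becn1 and Bnip3, and Fundc1 and Pink1 overlapped in their ranges. In the clones the order was Sqstm1, Map1lc3b, Becn1, Bnip3l, Pink1, Bnip3, Bcl2l13, Fundc1 and Park2, and the only neighbours that overlapped were Bnip3 and Bcl2l13.

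**Figure D4:**
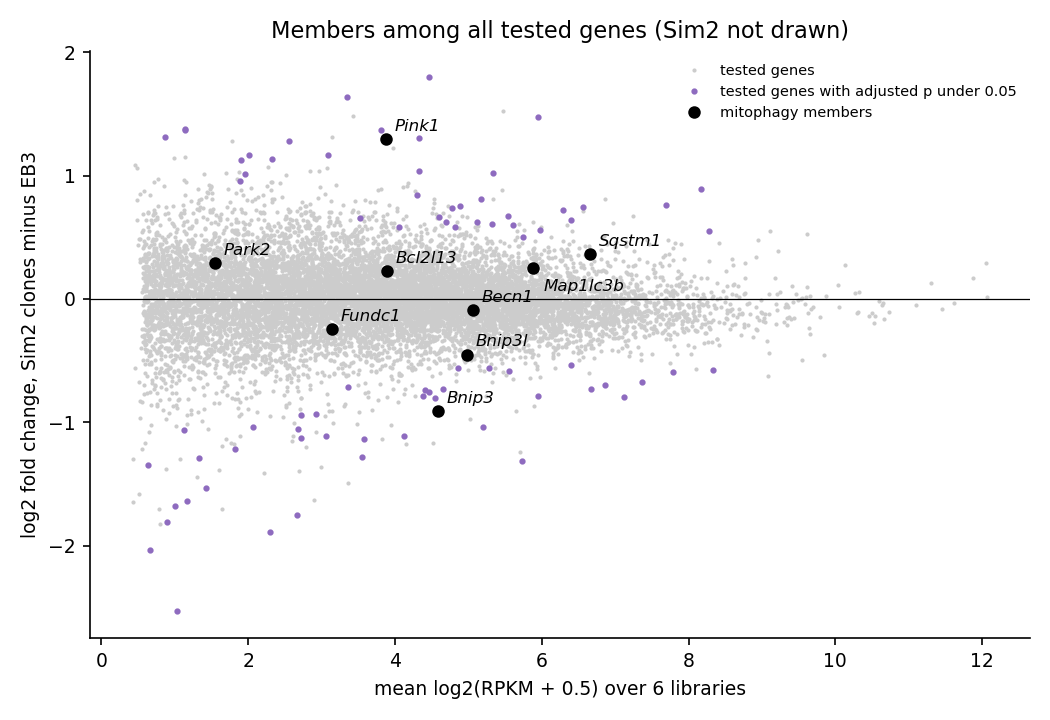
Log2 fold change (Sim2 clones minus EB3) against mean log2(RPKM + 0.5) for the tested genes other than Sim2, with those called in purple. Pink1 at 1.29 and Bnip3 at -0.91 lie at the edges of the cloud, and the other 7 members lie within it.

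Genes with related roles mostly did not pass the test, as was so for tested genes at large. Limma called 0.699% of all tested genes, and 17.8% had an unadjusted p under 0.05. At that share most lists of this length would hold no call, so 0 called does not set a list apart. Of 11 other mitophagy receptors and adaptors, all tested, 0 were called with limma or with voom, 1 had an unadjusted p under 0.05, and the median log2 fold change was 0.02. The largest differences were -0.27 ± 0.11 (SE) for Nipsnap1, which encodes a mitochondrial matrix protein that recruits autophagy adaptors, and 0.11 ± 0.10 for Tollip. Of 26 genes for PINK1 import and processing, Parkin substrates and deubiquitinases, 0 were called by either method, 3 had an unadjusted p under 0.05, all lower in the clones, and the median was -0.01. The largest were -0.38 ± 0.10 (SE) for March5, a ubiquitin ligase of the outer membrane (limma, adjusted p = 0.106), and -0.27 ± 0.08 for Tomm70a, an import receptor (adjusted p = 0.163). The third was Rhot1, chosen after its values were seen, with -0.23 ± 0.10 (adjusted p = 0.272). For autophagy initiation, 16 of 17 genes were tested, 0 were called by either method and 0 had an unadjusted p under 0.05. Their median was 0.07, and the largest were 0.23 ± 0.11 (SE) for Atg2a and 0.22 ± 0.13 for Atg14.

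Of 15 genes of the ATG8 family and its conjugation machinery 14 were tested and 1 was called, where 0.699% of tested genes were. This was Gabarapl1, an ATG8 protein related to LC3. It had 7.37, 8.10 and 7.12 RPKM in A6, B8 and C4 and 12.1, 12.9 and 13.1 in EB3-0, EB3-1 and EB3-2. All clones were below all controls. It fell by 0.72 ± 0.11 on the log2 scale (SE, limma, adjusted p = 0.0383), and with voom the adjusted p was 0.0524. When each library was dropped in turn the call was kept only without EB3-0. The other 13 ran from -0.24 to 0.28, and the median of the 14 was -0.05.

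**Figure D5:**
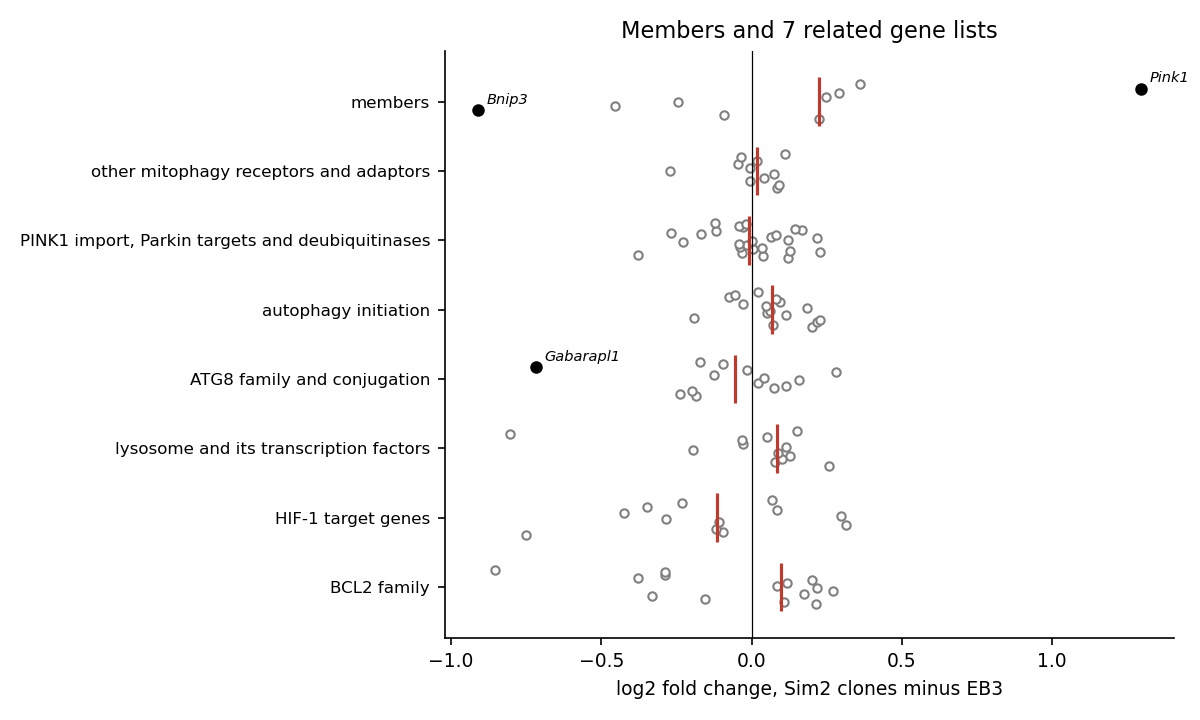
Log2 fold change (Sim2 clones minus EB3) of the members and of the tested genes in 7 related lists, with the median of each list as a red line. Filled points had an adjusted p under 0.05, which were Bnip3, Pink1 and Gabarapl1.

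Bnip3 is a HIF-1 target, so 14 other such genes were examined. Of these, 12 were tested and 0 were called with limma or voom, where limma called 0.699% of tested genes. An unadjusted p under 0.05 was found for 3 (1 higher and 2 lower in the clones), where 17.8% of tested genes had one. The median was -0.11, with 8 lower and 4 higher. Ankrd37 was 2.91, 2.70 and 3.13 RPKM in the clones and 7.90, 4.30 and 4.20 in EB3-0, EB3-1 and EB3-2, a difference of -0.75 ± 0.23 on the log2 scale (SE, limma, adjusted p = 0.155). P4ha1, which encodes a collagen prolyl hydroxylase subunit, had -0.43 ± 0.16 (adjusted p = 0.218). The higher one was Ndrg1, chosen after its values were seen, with 0.30 ± 0.10 (adjusted p = 0.181) and every clone above every control.

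The genes whose 6 log2 values, centred on their own mean, lay closest to those of Bnip3 were Zglp1, Slc16a3, Prelid2, Gm514 and Hist1h2bc, with a root mean square difference of 0.10 to 0.13. Slc16a3, the lactate exporter MCT4, was 25.5 to 30.4 RPKM in the clones and 42.9 to 63.0 in EB3, with its highest control value in EB3-0 as for Bnip3. The closest to Pink1 were 2610528J11Rik, AI848285, Cbr3, Trim54 and Prmt8, at 0.15 to 0.17. Cbr3, a carbonyl reductase gene, was 96.1 to 108 RPKM in the clones and 31.6 to 43.3 in EB3. With 6 libraries in 2 groups, this likeness rests mostly on the difference between the groups.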

How the data were processed

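The authors mapped paired reads to mm9 with BWA at default parameters, used a pipeline of their own for exon coverage of RefSeq genes, and deposited RPKM for each library. The BWA version, strand use and the treatment of reads with several positions are not given in the sources used here. RPKM times cDNA length was a whole multiple (within 0.01) of 1 step per library for 100% of values, which gave the reads in genes. More genes had 2 reads than 1, as when mates are counted apart.

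The 11595 genes whose mean over the 6 libraries reached 1 RPKM were tested on log2(RPKM + 0.5) with limma 3.58.1 (R 4.3.3, intensity trend, no covariate, Benjamini-Hochberg over all tested genes, called under 0.05), since the deposited unit is RPKM. Fold changes on this scale understate those of low genes. Single genes also had a 2-sided exact permutation test. The limma p-values set the group difference against the spread between clones and between EB3 cultures, moderated over all tested genes. The permutation p counts arrangements of the libraries. The fitting code was tested on simulated data. Upstream windows were read from the mm9 genome, and transcript copies were sought with BLAST 2.17.0.

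Members, lists and settings were chosen with earlier results of these data known. The genes named were the members, the Sim2 check, at most 5 called genes per list (otherwise the 2 largest differences), neighbours and overlapping genes, and the 5 genes most like Bnip3 and Pink1. Jakmip3 and Cda are given as neighbours although too low to test. Alternatives covered pseudocounts, filter, scaling, trends, voom, averaged controls and each library left out.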

Additional observations from a re-analysis of the deposited data

How the results depend on the processing

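Pink1 stayed higher and Bnip3 stayed lower in the clones under all 15 alternatives, with the call lost in 7 of them for Bnip3 and 6 for Pink1. The log2 fold change of Bnip3 was -0.91 without the filter on low values and -0.98 with EB3-1 and EB3-2 averaged, and ran from -0.998 to -0.776 with 1 library left out. It was smallest, at -0.68, with GC and length trends removed, where the call held narrowly (limma, adjusted p = 0.0471). That of Pink1 was 1.29, 1.23 and 1.22 to 1.43 in the same settings. Without the filter the adjusted p was 0.122 for Bnip3 and 0.0905 for Pink1, and with the controls averaged 0.115 and 0.0742. The number of members called was 0 in both settings and 0 to 5 with 1 library left out. It was 0 without B8, without C4, without EB3-1 or without EB3-2, 1 (Pink1) without A6 and 5 without EB3-0. Leaving out EB3-0 also gave 2 calls among the PINK1 import list, 1 among autophagy initiation and 2 among lysosomal genes, against 0 in each list with all libraries and no trend removed. In that fit 5.99% of tested genes were called, and the controls were only the close pair EB3-1 and EB3-2. Over all tested genes 81 were called, but 23 without the filter, 289 with the cDNA length trend removed, 205 with GC and length trends removed, 6 with the controls averaged, and 6 to 694 with 1 library left out. The cause of these shifts was not tested. Fundc1 (0.065) and Becn1 (0.036) changed sign with GC and length trends removed, and neither was called in any setting. The call of Bnip3l was gained with the length trend removed (limma, adjusted p = 0.0301). With the GC trend removed as well Bnip3l was not called, at -0.31, its smallest difference of all settings (limma, adjusted p = 0.0764). Voom on recovered reads was chosen after seeing the data and called Bnip3 and Pink1. The 2 count-model alternatives planned on the recovered reads were left out because the deposited unit is RPKM, and voom on those reads was used instead. No paired analysis was possible because the clones and the EB3 cultures share no replicate numbers. With 3 libraries against 3 and EB3-1 close to EB3-2, the controls' spread rests largely on EB3-0.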

Other observations

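BCL2 proteins decide whether the outer mitochondrial membrane stays intact, and BNIP3 and BCL2L13 are related to them by their BH domains. Of 15 genes of the BCL2 family 14 were tested and 0 were called with limma or with voom, where limma called 0.699% of tested genes. An unadjusted p under 0.05 was found for 2, both lower in the clones, where 17.8% of tested genes had one. Pmaip1 (NOXA) was 7.36, 3.07 and 8.61 RPKM in A6, B8 and C4 and 10.6, 11.6 and 10.7 in EB3-0, EB3-1 and EB3-2, a difference of -0.85 ± 0.31 on the log2 scale (SE, limma, adjusted p = 0.210). Its lowest value was that of B8. The other was Mcl1, chosen after its values were seen, with -0.29 ± 0.08 (adjusted p = 0.142) and every clone below every control. Bok, the second largest difference of the list, had -0.38 ± 0.22 (adjusted p = 0.411) with groups that overlapped, and the median of the list was 0.10.

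Lysosomes degrade what autophagosomes deliver. Of 14 lysosomal genes and their transcription factors 12 were in the table and tested. With limma or with voom 0 were called, where limma called 0.699% of tested genes. An unadjusted p under 0.05 was found for 1, where 17.8% of tested genes had one, and the median was 0.08. With the cDNA length trend removed, and with GC and length trends removed, 1 was called, lower in the clones, and without EB3-0 there were 2, 1 in each direction. Mitf was 2.59, 2.77 and 2.05 RPKM in the clones and 3.40, 5.44 and 5.41 in EB3-0, EB3-1 and EB3-2, a difference of -0.80 ± 0.20 on the log2 scale (SE, limma, adjusted p = 0.109). Atp6v0d1, a subunit of the proton pump, had 0.26 ± 0.13 (adjusted p = 0.341).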
